A study of Mus musculus with 22 samples.

Results

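The genes described here are 10 mouse genes that link FOXO transcription factors with insulin signalling: Foxo1, Foxo3, Foxo4, Irs1, Irs2, Pik3ip1, Ccng2, Sesn3, Bcl6 and Tcp11l2. They were chosen by name, with earlier results of these data known, so their counts beside those of all genes are a description. All 10 were found by their symbols among the 11208 genes of the expression table. Polyadenylated RNA was sequenced from NIH/3T3 cells, an established mouse embryo fibroblast line, with a stably integrated doxycycline-inducible construct. In the E2F1 line it encoded E2F1, a factor that drives cell cycle genes, and in the EV line it was an empty vector. Every group, controls included, had first been kept for 48 h in 0.25% serum, to hold cells in a G0-like rest. The 22 libraries form 11 groups of 2 replicates: 500 ng/ml doxycycline for 0, 2, 6 and 12 h in each line, and 10% serum for 2, 6 and 12 h in EV cells. The EV 0 h libraries served as the start of both EV courses. The labels do not say whether a line is a single clone, which promoter drives the insert beyond its response to doxycycline, or whether replicates are separate cultures. The p-values below therefore measure only the spread between these libraries, which may be technical.

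Insulin and insulin-like growth factors, present in serum, activate receptors that recruit the adaptor proteins IRS1 and IRS2. The adaptors bring in phosphoinositide 3-kinase (PI3K), which switches on the kinase AKT. AKT phosphorylates FOXO factors and keeps them out of the nucleus. When growth factors are scarce, FOXO factors enter the nucleus and switch on genes of cell cycle arrest and of nutrient sparing, among them Ccng2, Sesn3, Bcl6 and, in several tissues, the adaptor gene Irs2. The genes therefore hold the factors themselves, the adaptors upstream, a PI3K inhibitor (Pik3ip1) and target genes.

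Promoter sequences were taken from RefSeq (GRCm38.p6), with 250 bases before and 50 bases after each annotated start, for 9 of the 10 genes and 10 start sites (Foxo4 had no entry). For Pik3ip1, Ccng2, Tcp11l2, Sesn3 and the downstream Bcl6 start the whole window lay past the gene start annotated by GENCODE. For Pik3ip1, Ccng2 and Tcp11l2 every base before the RefSeq start lay in annotated exons, so transcribed sequence was searched there. The forkhead motif GTAAACA, searched on both strands, was in 0 of these 10 windows and in 3.65% of 32851 mouse promoter windows of the same length. An E2F motif (TTTGGCGC, TTTCGCGC, TTTCCCGC or TTTGCCGC, on either strand) was found for Irs2 alone and in 2.26% of all windows. The E-box CACGTG, a sequence read by MYC-type factors among others, was found for Irs1, Irs2 and the upstream Bcl6 start, against 7.15% of all windows. The motif TTTGAA, known as the CHR, was found at the downstream Bcl6 start, against 17.9% of all windows. The adaptor promoters are printed because both held an E-box and that of Irs2 an E2F match, and the Foxo1 promoter because Foxo1 was the gene that rose with E2F1. Each runs 5′ to 3′ on the strand of its gene and stops before the first transcribed base, and capitals mark motif matches. Irs1 is at chr1:82291440-82291689 (minus strand), Irs2 at chr8:11008930-11009179 (minus strand) and Foxo1 at chr3:52268087-52268335 (plus strand).
Irs1: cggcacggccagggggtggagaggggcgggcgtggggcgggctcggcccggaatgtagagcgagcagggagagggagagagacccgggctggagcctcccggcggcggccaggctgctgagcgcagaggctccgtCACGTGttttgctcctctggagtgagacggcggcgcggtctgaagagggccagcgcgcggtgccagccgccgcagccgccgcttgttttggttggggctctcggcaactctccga
Irs2: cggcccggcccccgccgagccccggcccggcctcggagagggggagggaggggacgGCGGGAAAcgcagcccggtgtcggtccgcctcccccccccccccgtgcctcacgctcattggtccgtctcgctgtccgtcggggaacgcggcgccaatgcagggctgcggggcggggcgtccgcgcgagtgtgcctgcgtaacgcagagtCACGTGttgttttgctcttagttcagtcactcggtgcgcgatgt
Foxo1: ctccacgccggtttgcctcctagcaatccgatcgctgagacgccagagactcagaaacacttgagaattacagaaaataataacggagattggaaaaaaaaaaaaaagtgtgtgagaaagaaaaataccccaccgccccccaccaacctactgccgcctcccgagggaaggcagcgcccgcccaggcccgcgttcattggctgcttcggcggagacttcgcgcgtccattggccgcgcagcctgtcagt
The Irs1 E-box began at position -115 and the Irs2 E-box at position -44 from the start site. The E2F match of Irs2, written GCGGGAAA on its strand, began at position -194. The whole Irs2 window lay upstream of the gene start annotated by GENCODE (11008458, against 11008929 in RefSeq). The Irs2 positions therefore hold for the RefSeq start only. The Foxo1 stretch has no capitals because it held none of these motifs. A match describes the letters only.

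Values are normalized counts, scaled between libraries and rounded by the authors. Differences are log2 differences of log2(value + 1) from 1 limma model over all genes and libraries, with Benjamini-Hochberg adjustment over the 11208 genes and a threshold of 0.05. Library totals ran from 34014608 to 46057140 normalized counts. All 8 fibroblast markers were in the table, with summed levels of 651595 to 1342928 per library, and 0 of 13 epithelial, leukocyte, endothelial and adipocyte markers were among its genes. E2f1 in the E2F1 line was 1703 and 1637 at 0 h, 1535 and 1755 at 2 h, 3806 and 3602 at 6 h, and 2683 and 2845 at 12 h. It was thus higher at 6 h and 12 h but not at 2 h, and whether the table counts transcripts of the construct is not given in the sources used here. In the EV line with doxycycline E2f1 stayed between 1307 and 1655. In serum it was 740 to 802 at 2 h and 4247 to 4615 at 12 h. One gene, named after its values were seen, bears on the labels of the early EV libraries. Ddx3y, a Y-linked RNA helicase gene, was 316 to 580 in the E2F1 line and 4 to 9 in the EV line at 0 h, but 71 and 103 after 2 h of doxycycline and 132 and 170 after 2 h of serum in the EV line. At later EV times it was between 4 and 48. Its part in the 2 h results was not tested.

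Serum lowered all 10 genes. After 2 h, 10 of 10 were below 0 h by the test, against 33.5% of all genes, and the median log2 difference of the 10 was -2.31 against 0.03 for all genes. In such bulk RNA a smaller share of cells with a transcript and less of it per cell cannot be told apart. The count was again 10 of 10 at 6 h, against 31% of all genes, and 10 of 10 at 12 h, against 29.7%. At each of these times the serum libraries of all 10 genes lay below both 0 h libraries, which held for 40%, 37.4% and 38.4% of all genes. Against the EV line after the same hours in doxycycline without added serum, 10 of 10 were again lower at 2 h (32.1% of all genes), at 6 h (30%) and at 12 h (32.5%). These comparisons share their serum libraries with those against 0 h. From 2 h to 12 h of serum 5 of the 10 rose again (31.7% of all genes), without regaining the 0 h level: Irs1, Pik3ip1, Foxo4, Sesn3 and Foxo3.

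**Figure D1:**
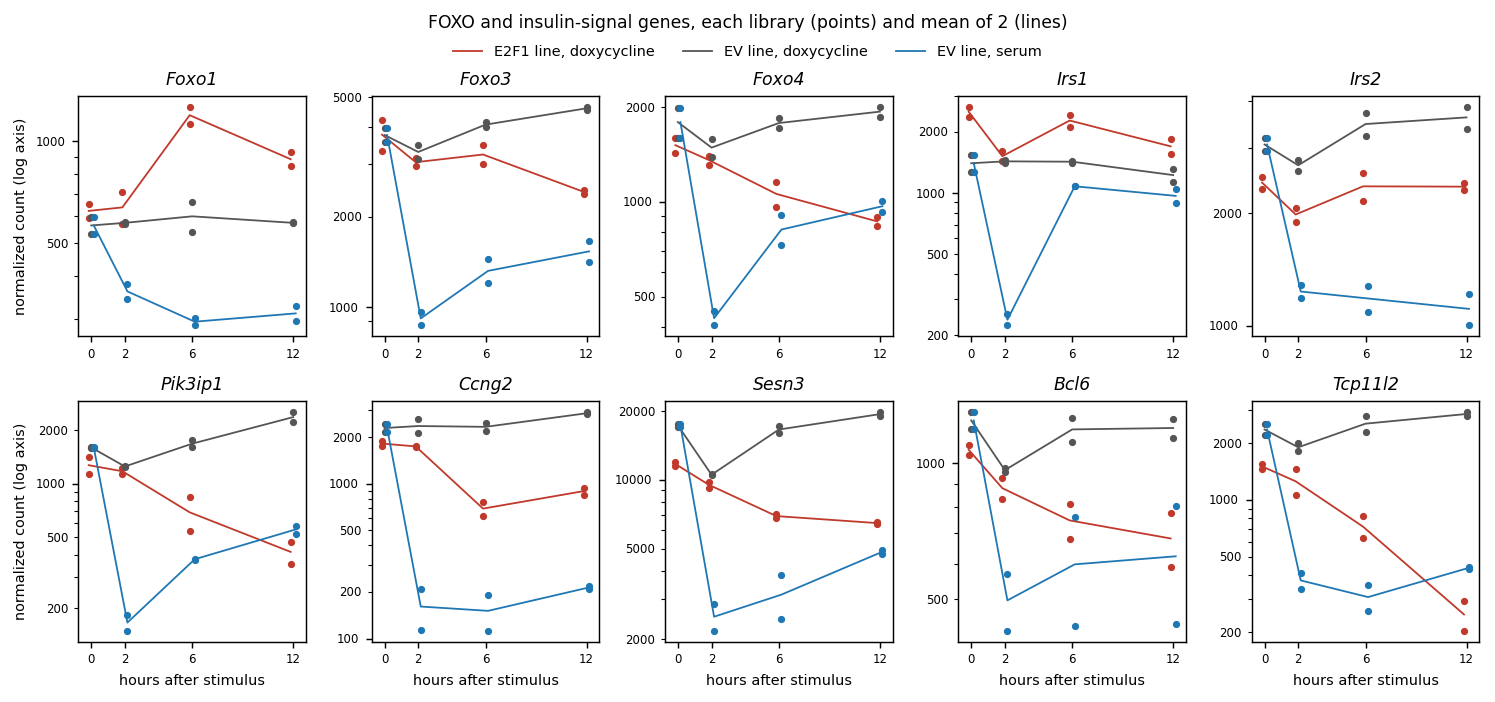
Normalized count (vertical log axis) of each gene against hours after the stimulus, with a point for each library and lines through the means of 2; red is the E2F1 line with doxycycline, grey the EV line with doxycycline and blue the EV line with serum, whose 0 h points are the EV 0 h libraries. Serum libraries lie below the EV 0 h libraries in every panel, and Foxo1 is the one panel in which both E2F1 libraries at 6 h and at 12 h lie above both at 0 h, at 1264 and 1120 at 6 h.

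The 3 FOXO genes encode forkhead transcription factors with closely related DNA-binding domains. Foxo3 (ENSMUSG00000048756.11, chromosome 10, 42181841 to 42276755, minus strand, GRCm38) was 3949 and 3549 at 0 h in the EV line, 872 and 966 after 2 h of serum, 1444 and 1202 after 6 h, and 1659 and 1414 after 12 h. All serum libraries were lower than every doxycycline library of either line. The log2 difference from 0 h was -2.03 (SE 0.12, adjusted p = 3.64e-11) at 2 h and -1.29 (SE 0.12, adjusted p = 3.56e-08) at 12 h. Foxo4 (ENSMUSG00000042903.8, chromosome X, 101254528 to 101260873, plus strand) went from 1997 and 1595 to 405 and 448 at 2 h, 727 and 907 at 6 h, and 1009 and 930 at 12 h. Its log2 difference was -2.06 (adjusted p = 1.16e-10) at 2 h and -0.88 (adjusted p = 1.15e-05) at 12 h. For both genes the lowest serum level was at 2 h, and 12 h was higher than 2 h, by 0.74 for Foxo3 (adjusted p = 2.71e-05) and 1.18 for Foxo4 (adjusted p = 3.38e-07). Foxo1 (ENSMUSG00000044167.6, chromosome 3, 52268336 to 52353221, plus strand) went from 598 and 531 to 380 and 342 at 2 h, 287 and 301 at 6 h, and 326 and 296 at 12 h. Its log2 difference was -0.64 (adjusted p = 0.000362) at 2 h, -0.94 (adjusted p = 7.92e-06) at 6 h and -0.86 (adjusted p = 2.51e-05) at 12 h. The 2 h value of Foxo1 depended on scaling: it was -0.35 (adjusted p = 0.0359) with quantile normalization and -1.02 (adjusted p = 2.58e-06) with equal library totals, still lower in each.

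After doxycycline the FOXO genes of the E2F1 line went in opposite directions from their 0 h levels. In the E2F1 line Foxo1 was 595 and 651 at 0 h, 706 and 570 at 2 h, 1264 and 1120 at 6 h, and 926 and 843 at 12 h. Both later times lay above all other libraries of the study, and it was higher than 0 h by 0.93 (SE 0.14, adjusted p = 1.68e-05) at 6 h and 0.50 (SE 0.14, adjusted p = 0.00365) at 12 h. Foxo4 was 1435 and 1599 at 0 h, 967 and 1155 at 6 h, and 897 and 837 at 12 h, without overlap with 0 h at either time. The log2 difference of Foxo4 was -0.52 (adjusted p = 0.00294) at 6 h, which missed the threshold without the 6 h replicate 1 (-0.39, adjusted p = 0.0554), and -0.81 (adjusted p = 3.52e-05) at 12 h. Foxo3 was 3312 and 4205 at 0 h, 2997 and 3460 at 6 h, and 2392 and 2454 at 12 h. Foxo3 was lower by the test at 12 h, with a log2 difference of -0.62 (SE 0.12, adjusted p = 0.000171). At 6 h it was at -0.21 (adjusted p = 0.139), and it passed there with quantile normalization (-0.44, adjusted p = 0.00407), with equal totals (-0.33, adjusted p = 0.0271) and without the 0 h replicate 1 (-0.38, adjusted p = 0.0249). Without the 0 h replicate 2 it was at -0.041 (adjusted p = 0.825).

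IRS1 and IRS2 are the main adaptors of the insulin and insulin-like growth factor receptors, and their genes are described together; the difference between their courses was not tested. Irs1 (ENSMUSG00000055980.2, chromosome 1, 82233101 to 82291416, minus strand) was 1536 and 1267 at 0 h in the EV line, 224 and 253 after 2 h of serum, 1081 and 1079 after 6 h, and 1046 and 891 after 12 h. Its deep dip was confined to the 2 h serum libraries, which were below every other library. The log2 difference from 0 h was -2.55 (SE 0.12, adjusted p = 4.49e-12) at 2 h, and -0.53 (adjusted p = 0.0011) at 12 h. At 6 h it was -0.37 (adjusted p = 0.0139), a call that was lost without the EV 0 h replicate 1 (-0.23, adjusted p = 0.179) and with only the compared groups in the model (adjusted p = 0.0535). The rise from 2 h to 12 h of serum, 2.02 (adjusted p = 2.11e-10), was larger than that of the other 9 genes. Irs2 (ENSMUSG00000038894.7, chromosome 8, 10984681 to 11008458, minus strand) went from 3186 and 2930 to 1185 and 1283 at 2 h, 1086 and 1278 at 6 h, and 1215 and 1002 at 12 h. The serum libraries of Irs2 overlapped one another across the 3 times. Its log2 difference from 0 h was -1.31 (adjusted p = 1.16e-08), -1.37 (adjusted p = 9.59e-09) and -1.47 (adjusted p = 6.09e-09).

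In the E2F1 line Irs1 was 2358 and 2663 at 0 h, 1605 and 1431 at 2 h, 2118 and 2428 at 6 h, and 1557 and 1837 at 12 h. It was the 1 gene of the 10 that passed the test after 2 h, against 0.99% of all genes lower, with a log2 difference of -0.73 (SE 0.12, adjusted p = 0.0049). That call was lost without the 2 h replicate 2 (adjusted p = 0.0851) or without the 0 h replicate 2 (adjusted p = 0.12). The other 9 genes ran from -0.30 (Sesn3) to 0.03 (Foxo1) and none passed, with 3 of these 9 at an unadjusted p under 0.05, all lower: Foxo3 (-0.29), Irs2 (-0.28) and Sesn3. In 8 of the 10 genes both 2 h libraries lay below both 0 h libraries, beside 23.1% of all genes. Irs1 was at -0.14 (adjusted p = 0.344) at 6 h and was lower by the test at 12 h, at -0.57 (adjusted p = 0.000687). Irs2 was 2327 and 2509 at 0 h, 1900 and 2070 at 2 h, 2571 and 2153 at 6 h, and 2412 and 2303 at 12 h. Its 2 h libraries lay below all others of the line, and those at 0, 6 and 12 h overlapped. Its log2 difference at 12 h was -0.04 (adjusted p = 0.805), with a 95% interval of -0.28 to 0.21.

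Pik3ip1 (ENSMUSG00000034614.14, chromosome 11, 3330401 to 3342971, plus strand) encodes a membrane protein that binds PI3K and restrains it. In the EV line it was 1586 and 1621 at 0 h, 149 and 183 after 2 h of serum, 375 and 379 after 6 h, and 526 and 583 after 12 h. All serum libraries lay below all EV doxycycline libraries, and the log2 difference went from -3.27 (SE 0.18, adjusted p = 1.3e-11) at 2 h to -1.53 (adjusted p = 5.5e-07) at 12 h, an upward step of 1.74 (adjusted p = 1.1e-07). With E2F1 the low values came later: 1136 and 1413 at 0 h, 1225 and 1131 at 2 h, 541 and 843 at 6 h, and 356 and 473 at 12 h. The log2 difference was -0.91 (adjusted p = 0.000324) at 6 h, or -0.59 (adjusted p = 0.0137) without the 6 h replicate 1, and -1.62 (SE 0.18, adjusted p = 3.22e-07) at 12 h. With doxycycline alone it was 2220 and 2532 at 12 h, above both 0 h libraries, at 0.56 (adjusted p = 0.082), which did not pass. With the replicate number as a block the same value passed (adjusted p = 0.0456).

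Among the target genes Ccng2 had the widest span, with its highest group mean 19-fold above its lowest. Ccng2 (ENSMUSG00000029385.14, chromosome 5, 93267257 to 93276231, plus strand) encodes cyclin G2, an unusual cyclin linked to cell cycle arrest. It was 2442 and 2159 at 0 h in the EV line, 113 and 209 after 2 h of serum, 190 and 112 after 6 h, and 219 and 209 after 12 h. The serum means were 6.6% to 9.3% of the 0 h mean. The 2 h libraries overlapped those at 6 h and touched those at 12 h, and the 12 h values were above those at 6 h. From 0 h it differed by -3.89 (SE 0.23, adjusted p = 4.13e-11) at 2 h, -3.97 (adjusted p = 7.03e-11) at 6 h and -3.42 (adjusted p = 8.18e-10) at 12 h. With E2F1 it was 1896 and 1754 at 0 h, 1746 and 1752 at 2 h, 617 and 768 at 6 h, and 852 and 947 at 12 h. It was lower at 6 h by the test, at -1.40 (adjusted p = 5.55e-05), and at 12 h, at -1.02 (adjusted p = 0.000815). The 12 h libraries lay above the 6 h libraries, but that step of 0.38 (adjusted p = 0.202) did not pass.

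Sesn3 (ENSMUSG00000032009.8, chromosome 9, 14275067 to 14333101, plus strand) encodes a sestrin, which restrains the growth kinase complex mTORC1. It was 17131 and 17594 at 0 h in the EV line, 2844 and 2174 after 2 h of serum, 3833 and 2441 after 6 h, and 4748 and 4929 after 12 h. The log2 difference was -2.80 (SE 0.14, adjusted p = 6.03e-12) at 2 h and -1.84 (adjusted p = 3.82e-09) at 12 h, and 12 h was above 2 h by 0.96 (adjusted p = 1.06e-05). With E2F1 it was 11966 and 11530 at 0 h, 9794 and 9235 at 2 h, 7059 and 6823 at 6 h, and 6541 and 6390 at 12 h. These pairs did not overlap at any step. Sesn3 was lower by 0.76 on the log2 scale at 6 h (log2 difference -0.76, adjusted p = 0.000216) and was at -0.86 (adjusted p = 3.94e-05) at 12 h.

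Tcp11l2 (ENSMUSG00000020034.7, chromosome 10, 84576626 to 84614359, plus strand), a relative of the gene Tcp11, had the largest fall with E2F1. It was 1467 and 1544 at 0 h in the E2F1 line, 1450 and 1061 at 2 h, 626 and 820 at 6 h, and 203 and 293 at 12 h. The 12 h mean was 16.5% of the 0 h mean, and the log2 difference was -2.62 (SE 0.19, adjusted p = 2.53e-09). With serum it went from 2516 and 2204 to 339 and 412 at 2 h, 258 and 355 at 6 h, and 432 and 444 at 12 h. The 12 h serum libraries were above both E2F1 12 h libraries. The log2 differences with serum were -2.65 (adjusted p = 6.18e-10), -2.96 (adjusted p = 2.82e-10) and -2.42 (adjusted p = 5.26e-09).

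Bcl6 (ENSMUSG00000022508.5, chromosome 16, 23965052 to 23988852, minus strand) encodes a transcriptional repressor and had the smallest span, with its highest group mean 2.5-fold above its lowest. It was 1295 and 1189 at 0 h in the EV line, 569 and 426 after 2 h of serum, 436 and 759 after 6 h, and 442 and 803 after 12 h. The replicates were far apart at 6 h and 12 h. From 0 h it differed by -1.33 (SE 0.24, adjusted p = 7.92e-05) at 2 h, -1.11 (adjusted p = 0.000566) at 6 h and -1.06 (adjusted p = 0.000918) at 12 h. Without serum replicate 1 they were -0.71 (adjusted p = 0.0213) at 6 h and -0.63 (adjusted p = 0.0383) at 12 h. Against the EV line after 12 h of doxycycline, Bcl6 was lower by the test (adjusted p = 0.00127), and this call was lost without the serum 12 h replicate 1 (adjusted p = 0.052). Irs1 in the same comparison was at -0.34 (adjusted p = 0.021) and missed the threshold without the EV doxycycline 12 h replicate 1 (adjusted p = 0.187) or the serum 12 h replicate 2 (-0.22, adjusted p = 0.197). With E2F1 Bcl6 was 1095 and 1044 at 0 h, 813 and 681 at 6 h, and 774 and 589 at 12 h. It missed the threshold at 6 h (-0.52, adjusted p = 0.0792) and passed at 12 h (-0.66, adjusted p = 0.0242). The 12 h call was lost without the 12 h replicate 2 (adjusted p = 0.191), the 0 h replicate 1 (adjusted p = 0.093) or the 0 h replicate 2 (adjusted p = 0.0656).

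Over the 10 genes in the E2F1 line, 5 were lower by the test at 6 h, against 22.9% of all genes, and 1 was higher, against 28.8%. The number lower at 6 h depended on scaling: it was 8 with quantile normalization and 7 with equal totals, with Foxo3 and Bcl6 added in both and Irs1 (-0.33, adjusted p = 0.0396) with quantile normalization. At 12 h 8 were lower, against 29.7% of all genes, and 1 was higher, against 31.8%. The median log2 difference of the 10 was -0.73 at 12 h, beside -0.02 for all genes. From 6 h to 12 h a further 5 of 10 were lower (20.2% of all genes): Tcp11l2 by -1.55 (adjusted p = 1.57e-05), Pik3ip1 by -0.72 (adjusted p = 0.00432), Foxo1 by -0.43 (adjusted p = 0.0206), Irs1 by -0.42 (adjusted p = 0.0135) and Foxo3 by -0.41 (adjusted p = 0.0119). Of these steps that of Tcp11l2 alone kept its call when any single library was left out. Foxo1 lost it without the 6 h replicate 1 (adjusted p = 0.152) or the 12 h replicate 2 (adjusted p = 0.131). Foxo3 (adjusted p = 0.126), Irs1 (adjusted p = 0.13) and Pik3ip1 (-0.40, adjusted p = 0.11) lost it without the 6 h replicate 2, and without the 12 h replicate 1 (adjusted p = 0.0618, 0.143 and 0.0732).

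**Figure D2:**
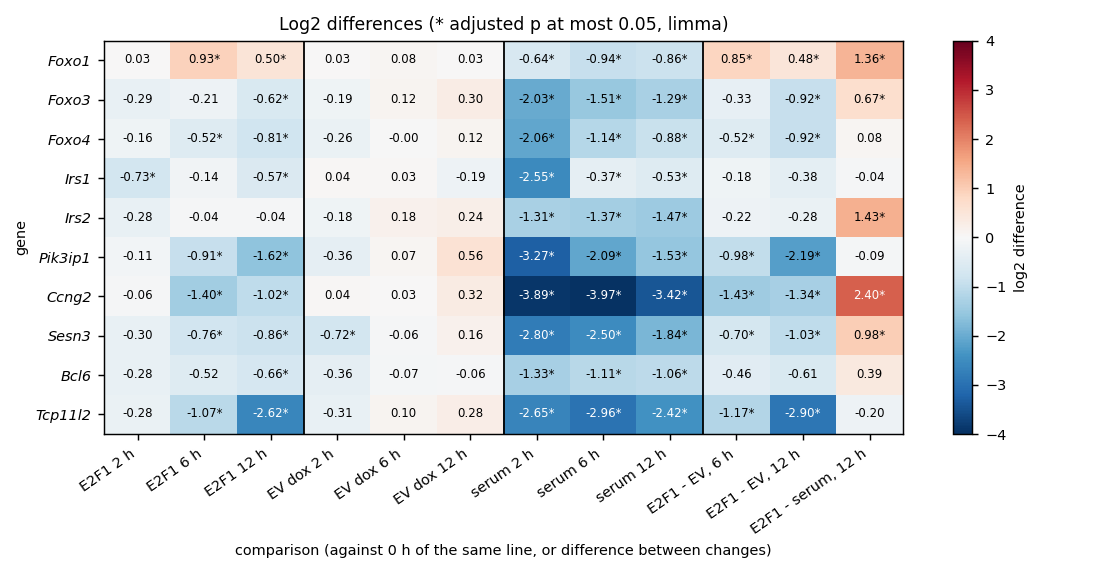
Log2 difference of each gene (vertical) in each comparison (horizontal), with colour and printed value, and an asterisk where the adjusted p is at most 0.05; the last 3 columns are differences between changes. All 30 serum cells are negative and starred, the EV doxycycline cells carry 1 star (Sesn3 at 2 h, -0.72), and the E2F1 cells hold positive stars for Foxo1 alone.

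Doxycycline alone gave 1 call among these genes over its 3 times. After 2 h in the EV line 1 of 10 passed, Sesn3, against 2.43% of all genes lower. Sesn3 was 10588 and 10496 at 2 h, below the 0 h libraries of 17131 and 17594, then 17253 and 16048 at 6 h and 19841 and 19068 at 12 h. Its log2 difference at 2 h was -0.72 (SE 0.14, adjusted p = 0.0052), and the call was lost without the 2 h replicate 2 (-0.71, adjusted p = 0.0591). These 2 h libraries are those in which Ddx3y was raised, and the part of that in the Sesn3 value was not tested. In 7 of the 10 genes both 2 h libraries lay below both 0 h libraries, beside 22.6% of all genes. At 6 h limma called 0 of 10, beside 0.134% of all genes, and 0 of 10 had an unadjusted p under 0.05. After 12 h limma called 0 of 10, beside 4.17% of all genes. Unadjusted, 2 of 10 were under 0.05, and the largest value was 0.56, that of Pik3ip1. In 6 of the 10 genes the 12 h and 0 h libraries did not overlap and 12 h was higher, beside 22.2% of all genes.

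The change in the E2F1 line was then set against that in the EV line, which had the same doxycycline and the same hours in low serum. E2F1 and other differences between the lines cannot be told apart in this comparison. At 2 h limma called 0 of 10 (0.143% of all genes), with 1 of 10 at an unadjusted p under 0.05. At 6 h the E2F1 line had gone lower than the EV line in 5 genes (12.3% of all genes) and higher in 1 (22.2%). The 5 were Ccng2 at -1.43 (adjusted p = 0.00209), Tcp11l2 at -1.17 (adjusted p = 0.00245), Pik3ip1 at -0.98 (adjusted p = 0.00511), Sesn3 at -0.70 (adjusted p = 0.0112) and Foxo4 at -0.52 (adjusted p = 0.0366). Foxo1 was higher by 0.85 (SE 0.19, adjusted p = 0.00215). The Foxo4 call was lost with only the compared groups in the model (adjusted p = 0.0592) and without the E2F1 6 h replicate 1 (-0.39, adjusted p = 0.164), the E2F1 0 h replicate 2 (-0.44, adjusted p = 0.129), the EV 0 h replicate 2 (-0.36, adjusted p = 0.18) or the EV 6 h replicate 1 (-0.46, adjusted p = 0.115).

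At 12 h the E2F1 line had gone lower in 6 genes (23.3% of all genes) and higher in 1 (27.3%). Tcp11l2 differed most, at -2.90 (SE 0.27, adjusted p = 1.24e-07), and Pik3ip1 was next, at -2.19 (SE 0.25, adjusted p = 1.03e-06). Ccng2 was at -1.34 (adjusted p = 0.00204), Sesn3 at -1.03 (adjusted p = 0.000334), Foxo4 at -0.92 (adjusted p = 0.000423) and Foxo3 at -0.92 (adjusted p = 0.000172). The calls of these 6 held in every alternative. Foxo1 was at 0.48 (SE 0.19, adjusted p = 0.0467), and this call was fragile: it was lost with quantile normalization (0.36, adjusted p = 0.142), with equal totals (0.41, adjusted p = 0.0875), with only the compared groups in the model (adjusted p = 0.0534) and without the EV 2 h libraries (adjusted p = 0.0543). It was also lost on leaving out 7 of the 8 single libraries, with adjusted p up to 0.148. Irs1, Irs2 and Bcl6 did not pass at 12 h, at -0.38 (95% interval -0.75 to -0.01), -0.28 (-0.62 to 0.07) and -0.61 (-1.33 to 0.11). Each passed in some alternatives: Irs1 in 5, among them quantile normalization (-0.55, adjusted p = 0.0185) and equal totals (-0.44, adjusted p = 0.0491), Irs2 with quantile normalization (-0.42, adjusted p = 0.0327), and Bcl6 with only the compared groups in the model (adjusted p = 0.0243).

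E2F1 and serum were then compared by the difference of their changes from 0 h, each in its own line. Stimulus, line and doxycycline cannot be told apart here at 6 h or at 12 h, because the serum groups had no doxycycline. At 6 h the change with E2F1 was above that with serum in 8 of 10 genes (30.3% of all genes). The largest differences were Ccng2 at 2.56 (adjusted p = 2.37e-06), Tcp11l2 at 1.89 (adjusted p = 1.01e-05), Foxo1 at 1.87 (adjusted p = 2.12e-07) and Sesn3 at 1.75 (adjusted p = 7.66e-07). Foxo4 at 0.62 (adjusted p = 0.00813) was the smallest of the 8, and its call was lost without the EV 0 h replicate 1 (adjusted p = 0.0558) or the serum 6 h replicate 1 (adjusted p = 0.0508). Irs1 (0.22, 95% interval -0.14 to 0.59) and Bcl6 (0.59, -0.13 to 1.30) did not pass.

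At 12 h the change with E2F1 was above that with serum in 5 of 10 genes (25% of all genes). Ccng2 was at 2.40 (SE 0.32, adjusted p = 8.92e-06): it stood at 49.3% of its 0 h mean with E2F1 and at 9.3% with serum. Irs2 was at 1.43 (SE 0.16, adjusted p = 1.61e-06), at 97.5% of its 0 h mean with E2F1 and 36.2% with serum. Foxo1 was at 1.36 (adjusted p = 1.53e-05), at 142% with E2F1 and 55.1% with serum, the one gene of the 10 called in opposite directions in the 2 courses. Sesn3 was at 0.98 (adjusted p = 0.000538) and Foxo3 at 0.67 (adjusted p = 0.00297). The other 5 genes did not pass, with intervals that leave room for differences of either sign: Foxo4 at 0.08 (95% interval -0.31 to 0.46), Irs1 at -0.04 (-0.41 to 0.33), Pik3ip1 at -0.09 (-0.61 to 0.43), Tcp11l2 at -0.20 (-0.76 to 0.37) and Bcl6 at 0.39 (-0.32 to 1.11).

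**Figure D3:**
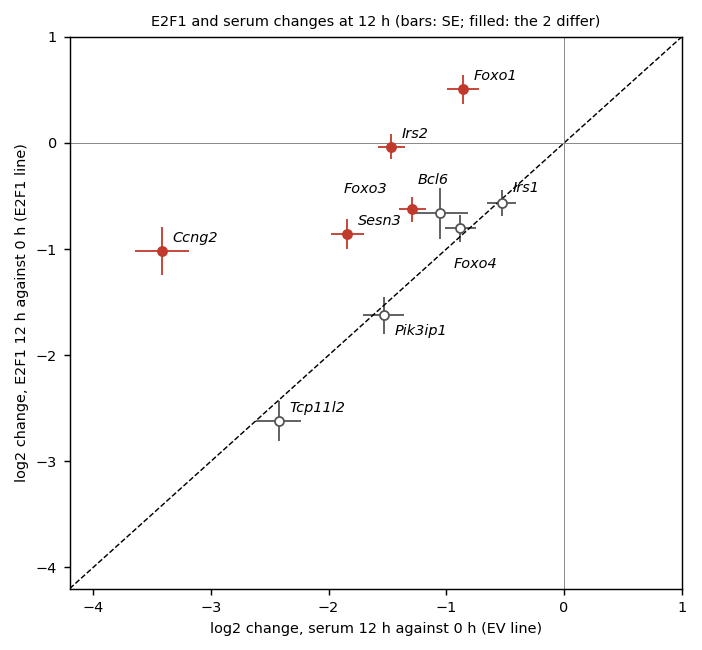
Log2 change of each gene at 12 h against 0 h with serum in the EV line (horizontal) and with E2F1 in the E2F1 line (vertical), with SE bars; filled points are genes whose changes differed by the test and the dashed line marks equal changes. The filled points of Ccng2, Irs2, Foxo1, Sesn3 and Foxo3 lie above the line. Open points of Irs1, Foxo4, Pik3ip1 and Tcp11l2 lie close to it, and that of Bcl6 lies above it.

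The starved lines already differed in 3 of the 10 genes at 0 h, against 15% of all genes. Irs1 was higher in the E2F1 line (2358 and 2663 against 1536 and 1267), by 0.84 (SE 0.12, adjusted p = 0.000262). Sesn3 was lower by -0.56 (adjusted p = 0.0124) and Tcp11l2 by -0.65 (adjusted p = 0.0297). The Sesn3 call was lost without either E2F1 0 h library (adjusted p up to 0.0736) or the EV 0 h replicate 2 (adjusted p = 0.0539), and that of Tcp11l2 without any of the 4 libraries (adjusted p up to 0.165). The Irs1 call held in each case. Irs1 after 12 h in the E2F1 line (1557 and 1837) lay above all EV libraries, of which the highest was 1536 at 0 h. After 2 h in the E2F1 line (1605 and 1431) it did not. The part of the 0 h offset in these levels was not tested.

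To set genes roughly side by side, levels were divided by the kilobases of all annotated exons of each gene. Which of its transcripts were present was not taken into account. Per kilobase, Sesn3 led in the starved EV line at 1137 normalized counts. Next were Tcp11l2 at 686, Foxo4 at 515, Foxo3 at 495 and Irs2 at 484. Ccng2 was at 421, Pik3ip1 at 375, Bcl6 at 185, Irs1 at 153 and Foxo1 at 65.1. After 2 h of serum the order per kilobase was led by Irs2 at 195 and Sesn3 at 164, and Irs1 at 26.1 and Ccng2 at 29.5 were last. After 12 h of E2F1 Sesn3 led at 423, Irs2 was at 373 and Tcp11l2 was last at 72.1. The highest group mean of Foxo3, Foxo4, Ccng2, Irs2, Pik3ip1, Sesn3 and Tcp11l2 was that of the EV line after 12 h of doxycycline. For Foxo4, Irs2 and Tcp11l2 the libraries of that group overlapped those of the next group in order. How often that group was highest over all genes was not counted. Against 0 h of its line limma called 0 of the 10 genes in it. Counting by strand is not given in the sources used here, and Foxo1, Irs1, Irs2, Pik3ip1 and Bcl6 overlap other annotated genes, so reads of those neighbours could be included in their values.

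Across the 11 group means the 10 genes were not equally alike. Foxo4 and Pik3ip1 were the closest pair (Pearson r = 0.99), and Foxo1 and Tcp11l2 the least alike (r = 0.25). The adaptors Irs1 and Irs2 were at r = 0.55. These correlations describe 11 group means that share lines, and carry no test. Over all genes the nearest neighbours by the same measure were Slc25a51 (r = 0.98) for Foxo1, Tmem164 (0.99) for Foxo3, and Pik3r2 (0.99) for Ccng2, while Foxo4 and Pik3ip1 were each other's nearest, with Phf21a second for both (0.99). Pik3r2 encodes a regulatory subunit of PI3K. Irs1 was nearest to Frg2f1 (0.96), Bcl6 to Sesn3 (0.98), Sesn3 to Abhd18 (0.99) and Tcp11l2 to Caps2 (0.99).

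The wider pathway did not move one way. Of 43 other genes of the insulin, PI3K and AKT pathway, 40 were in the table. After 12 h of E2F1 14 were higher and 15 lower, with a median log2 difference of -0.01. That is 35% and 37.5% of the list, beside 31.8% and 29.7% of all genes. After 2 h of serum 14 were higher and 14 lower, with a median of -0.04, beside 37.5% and 33.5% of all genes. After 12 h of serum 16 were higher and 14 lower, beside 36% and 29.7% of all genes. With E2F1 at 12 h the largest rises were Ptpn11 (1.03), a phosphatase gene of receptor signalling, Akt1 (0.84), the kinase gene itself, and Rheb (0.76), an activator of mTORC1. The largest falls were Pik3cd (-1.01), a PI3K catalytic subunit, Akt1s1 (-0.75), an AKT substrate that restrains mTORC1, and Shc1 (-0.74), an adaptor. After 2 h of serum Trib3 (3.56), Sgk1 (2.23), an AKT-related kinase, and Pik3cb (2.17) rose most. Deptor (-2.14), an inhibitor of mTOR, Pik3r1 (-1.59) and Pik3r2 (-1.39), regulatory subunits of PI3K, fell most.

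Other FOXO targets leaned lower with both stimuli. Of 39 listed, 35 were in the table. After 12 h of E2F1 22 (62.9%) were lower and 7 (20%) higher, beside 29.7% and 31.8% of all genes, with a median of -0.47. After 2 h of serum 19 (54.3%) were lower and 9 (25.7%) higher, beside 33.5% and 37.5% of all genes (median -0.54). After 12 h of serum 23 (65.7%) were lower and 6 (17.1%) higher, beside 29.7% and 36% of all genes (median -0.86, beside 0.05 for all genes). In the difference between the lines at 12 h 17 of the 35 were lower and 3 higher, beside 23.3% and 27.3% of all genes, with a median of -0.57. Among the falls were Crebrf (-1.69 with E2F1 and -2.43 with serum at 12 h), a regulator of the CREB3 factor family, Fbxo32 (-1.66 and -2.97), the ubiquitin ligase gene known as atrogin, and Selenop (-1.12 and -3.10), a selenium carrier. Txnip, an inhibitor of glucose uptake, fell furthest with serum at 2 h, from a mean of 9078 to 266 (log2 difference -5.11). Against this direction Cdkn1a, the gene of the cell cycle inhibitor p21, rose with E2F1 from a mean of 3010 to 15024 at 12 h (2.32), and with serum by 1.94 at 2 h and 0.81 at 12 h. With serum Gadd45b (2.46) and Klf4 (2.26) rose more than Cdkn1a at 2 h, and Cited2 (0.98) and Sod2 (0.84) at 12 h. Mxi1 (1.65) and Klf4 (1.15) also rose in the E2F1 line at 12 h. In the difference between the lines at 12 h the 3 higher genes were Cdkn1a (2.04), Mxi1 (1.48) and Cdkn1b (0.89), and Klf4 was not called higher. The lists were chosen with earlier results on these libraries known, so their direction is a description.

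**Figure D4:**
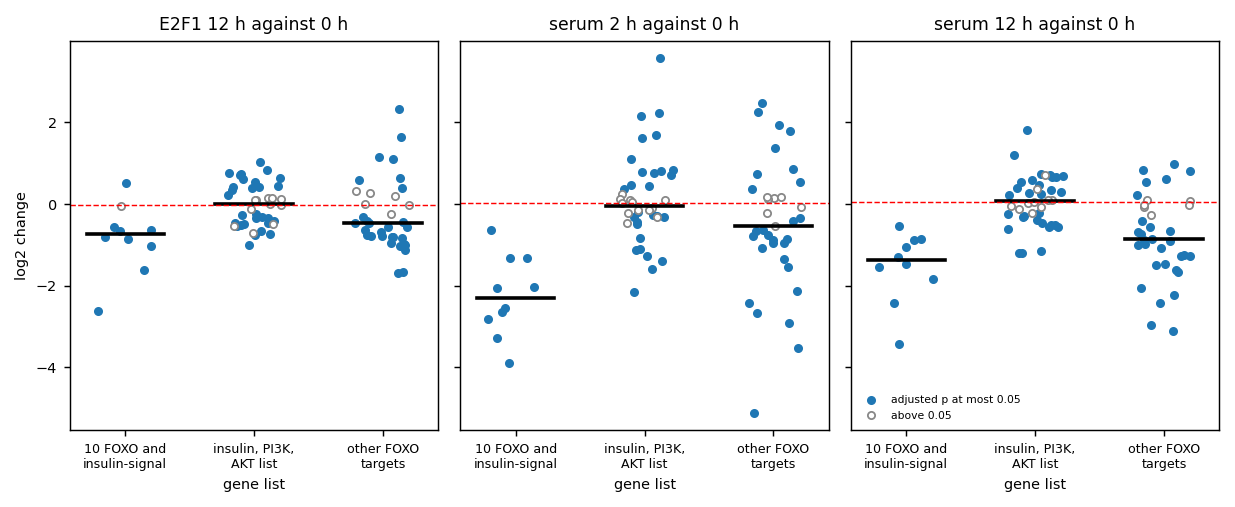
Log2 change against 0 h (vertical) of the 10 genes, the insulin, PI3K and AKT list and the list of other FOXO targets, after 12 h of E2F1, 2 h of serum and 12 h of serum; each point is a gene, filled where the adjusted p is at most 0.05, black bars are list medians and the red dashed line is the median of all genes. The pathway list centres near 0 (medians -0.01, -0.04 and 0.07), and the FOXO target list lies lower (-0.47, -0.54 and -0.86).

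The authors' deposited tables list genes with large changes only, of about 2 or more on the log2 scale. For serum at 2 h the authors' deposited table lists 7 of the 10 genes, all lower: Ccng2 (-3.87), Pik3ip1 (-3.27), Sesn3 (-2.79), Tcp11l2 (-2.64), Irs1 (-2.54), Foxo4 (-2.05) and Foxo3 (-2.02). At 6 h of serum the authors' deposited table lists Ccng2 (-3.95), Tcp11l2 (-2.95), Sesn3 (-2.49) and Pik3ip1 (-2.08), and at 12 h Ccng2 (-3.40) and Tcp11l2 (-2.40). For the E2F1 line the authors' deposited table at 12 h lists Tcp11l2 (-2.61), and those at 2 h and 6 h list none of the 10.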

How the data were processed

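The data are RNA profiles of 22 NIH/3T3 libraries, grouped and numbered by their labels. FastQC, Trimmomatic, HISAT2, featureCounts, DESeq2 and the build mm10 are named in the submitters' processing notes, with no role or version. The main table holds normalized counts per gene and library, per the file headers. The authors had scaled and rounded these values, so they were treated as a score and not as raw counts. The authors deposited further tables with the log2 fold change of each time against 0 h, and an adjusted p-value for each gene, for large changes only. Their serum tables refer to a 0 h serum group, read here as the starved EV libraries.

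A value of 1 was added before taking log2. In limma 3.58.1 (R 4.3.3) a model with a mean for each of 11 groups took in every library (11 residual degrees of freedom, trended moderation). Benjamini-Hochberg adjustment ran over all 11208 genes in each of 20 comparisons. A filter (a value of at least 10 in 2 libraries) removed no gene. The scripts were tested on simulated data first. The alternatives were a pseudocount of 8, quantile normalization, equal totals, a replicate block, a model of the compared groups alone and leaving out each library. Leaving out one library leaves 1 in its group, which is then assumed to vary like the others. A fit without both EV doxycycline 2 h libraries was chosen after seeing the data.

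The 10 genes, both pathway lists and the rule for named genes were chosen with earlier results of these data known. From each list the text could name the 3 strongest rises and the 3 strongest falls past the threshold for E2F1 12 h, serum 2 h, serum 12 h and the difference between the lines at 12 h, if the higher group had a mean of 50 or more. The 2 genes with the highest Pearson correlation over group means were taken as neighbours of each gene; those of Irs2 are not reported here. Positions are from GENCODE M21 (GRCm38, the same assembly as mm10), in which 10977 of 11208 identifiers occurred with the same version. Raw depth per library is unknown, so precision rests on the spread between replicates, pooled over the 11 groups and moderated across genes. No 2 replicates held identical values. Tables and figures were made in Python 3.11.15 (pandas 2.3.3, numpy 2.4.6, matplotlib 3.10.9).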

Additional observations from a re-analysis of the deposited data

Results flagged for a closer look

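The change with doxycycline differed between the E2F1 and EV lines for 6 of the 10 genes at 6 h and for 7 at 12 h, by limma's test of the difference itself (adjusted p at most 0.05, 2 libraries a group). At 6 h the E2F1 change minus the EV change was 0.85 for Foxo1, -0.52 for Foxo4, -1.43 for Ccng2, -0.98 for Pik3ip1, -0.70 for Sesn3 and -1.17 for Tcp11l2 on the log2 scale. At 12 h it was 0.48 for Foxo1, -0.92 for Foxo3, -0.92 for Foxo4, -1.34 for Ccng2, -2.19 for Pik3ip1, -1.03 for Sesn3 and -2.90 for Tcp11l2. Groups of 2 libraries are too small for a check of single outlying libraries.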

How the results depend on the processing

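Of 136 values of single genes, 116 were past the threshold, 100 of these stayed past it in every alternative, 16 were lost in at least 1, and 0 of the 116 reversed. This count left out values not past the threshold in some comparisons, so its 20 such values are not all of them. Left out were those of the EV line with doxycycline (save Pik3ip1 at 12 h), of the lines at 0 h and of their difference at 2 h. So were those of the E2F1 line at 2 h and from 6 h to 12 h, and of serum from 2 h to 12 h. Of the 20 counted, 10 passed in at least 1 alternative. The number of the 10 genes called moved by over 1.5 times in these cases. After 2 h of doxycycline in the E2F1 line it was 2, in place of 1, with only the groups compared. It could fall on leaving out single libraries. After 2 h of doxycycline in the EV line it was 0 to 1 on leaving out single libraries. At 0 h between the lines it was 1 to 2 in place of 3, and from 6 h to 12 h of E2F1 2 to 4 in place of 5. From 2 h to 12 h of serum it was 8, in place of 5, with equal totals, which shift the median of all genes there by 0.293 (and by -0.374 for serum at 2 h, -0.214 for serum at 6 h and -0.117 for E2F1 at 6 h). Values near 0 changed sign on leaving out single libraries. Irs2 ran from -0.17 to 0.090 after 6 h and from -0.090 to 0.018 after 12 h of E2F1. In the E2F1 change minus the serum change at 12 h, Foxo4 ran from -0.086 to 0.24, Irs1 from -0.18 to 0.10, Pik3ip1 from -0.30 to 0.11, Bcl6 from -0.035 to 0.82 and Tcp11l2 from -0.46 to 0.067. Over all genes, calls after 2 h of doxycycline in the E2F1 line were 208, or 330 with quantile normalization and 596 with only the groups compared. They were fewer on leaving out single libraries. In the EV line calls were 824 at 2 h, 15 at 6 h and 467 at 12 h, or 400, 1 and 77 with only the groups compared. On leaving out single libraries they were 157 to 505 at 2 h, 8 to 30 at 6 h and 26 to 803 at 12 h. Between the lines at 0 h they were 1684, or 652 with only the groups compared. For the difference between the lines at 2 h they were 16, or 51 with quantile normalization, 45 with only the groups compared and 33 with the replicate block.

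Replicate numbers were not taken as pairs: deviations correlated above 0.1 in 18 of 55 pairs of groups, with a median r of 0.03. With the replicate block 1 of the 10 genes, in place of 0, was called after 12 h of doxycycline in the EV line, and the number called was the same in the other 19 comparisons. The cause of these shifts was not tested. Values with no raw depth allow no counting interval.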
